A study of Rattus norvegicus with 8 samples.

Results

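The proteasome subunit genes were studied in outflow veins of rat arteriovenous fistulas (AVF) treated with β-aminopropionitrile (BAPN), which blocks the lysyl oxidases and so the crosslinking of collagen. They were taken by name as all genes called Psma, Psmb, Psmc, Psmd, Psmf or Psmg with a number, without the immunoproteasome genes Psmb8, Psmb9 and Psmb10. This gave 40 of the 32623 listed genes, namely 15 core subunits (Psma and Psmb), 17 cap subunits (Psmc and most Psmd) and 8 assembly factors or inhibitors (Psmd5, Psmd9, Psmd10, Psmf1 and Psmg1 to Psmg4). RNA was sequenced from 8 Sprague Dawley rats in which the epigastric vein had been joined to the femoral artery and wrapped with a bilayer PLA/PLGA nanofiber scaffold, and the vein was taken after 21 days. In the BAPN group (3 females and 1 male) the inner layer of the scaffold carried BAPN, and in the Vehicle group (2 females and 2 males) it did not. All 8 rats therefore had surgery and a scaffold, none of these libraries came from an unoperated vein, and the ages of the rats were not given in the sources used here. The whole vein wall was sequenced, so in these bulk samples fewer cells of a type and less RNA per cell cannot be told apart.

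The proteasome is the large protease that degrades proteins tagged with ubiquitin. Its core is a barrel of stacked rings, in which the outer alpha rings form a gate and the inner beta rings hold the proteolytic sites facing the chamber. The cap binds ubiquitin chains, removes them, unfolds the substrate with a ring of ATPases and feeds it through the gate. Dedicated chaperones assemble both parts. Proteasome genes are known to be expressed together, and the transcription factor encoded by Nfe2l1 raises them when proteasome activity is short. In the vessel wall, as elsewhere, it turns over structural and signaling proteins.

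The authors deposited reads counted per gene without normalization. The total count was 45039451 to 52241007 in the BAPN libraries and 19548203 to 22442050 in the Vehicle libraries. Every BAPN library was thus more than 2 times as deep as any Vehicle library (ratio of the closest pair 2.01), and depth and treatment cannot be told apart by design. The tests covered 11682 genes, those whose base mean (mean normalized count) reached 100. Levels are given as counts per 1000000 after TMM scaling (CPM), differences as log2 fold changes of BAPN against Vehicle, and FDR values as Benjamini-Hochberg adjusted p-values of edgeR's quasi-likelihood test over all tested genes, with an FDR below 0.05 counted as a call. Of the 40 proteasome genes, 38 were tested. Psma8 and Psmb11, the remaining genes, which are known from testis and thymus, had 0 reads in all 8 libraries. Psma3 was not analysed here under that name. Its place in the alpha ring was represented by Psma3l, which RefSeq gives as another name of Psma3 and which the naming rule leaves out.

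All 38 tested proteasome genes had a log2 fold change above 0, between 0.06 and 0.65, with a median of 0.37. Over all tested genes 51.6% had a value above 0 and the median was 0.02. Of the 38 genes, 19 rose with BAPN and none fell in edgeR, where 7.5% of all tested genes were called higher and 9.25% lower (876 and 1081 genes, or 504 and 1161 when only total counts were used for scaling). DESeq2 called 26 of them higher, against 12.3% of all tested genes. The groups did not overlap for 26 genes, with the lowest BAPN rat above the highest Vehicle rat, as for 12.7% of all tested genes. The sign of Psmg4, the smallest value, turned below 0 under total counts and without BAPN 3 or Vehicle 4. The other 37 genes kept values above 0 in all 18 alternatives tried. RefSeq names pseudogenes or like-named copies of 15 of the 38 genes, with the largest numbers for Psmb3 (10) and Psma6 (5), so the counts of these genes are uncertain where reads match several places. The other genes with named copies are Psmb6, Psma5, Psma2, Psmb7, Psma7, Psmb4, Psmd14, Psmc6, Psmd12, Psmc4, Psmd8, Psmd1 and Psmg4. Psma1 and Psmd6, the core and the cap gene with the smallest FDR, have none.

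**Figure D1:**
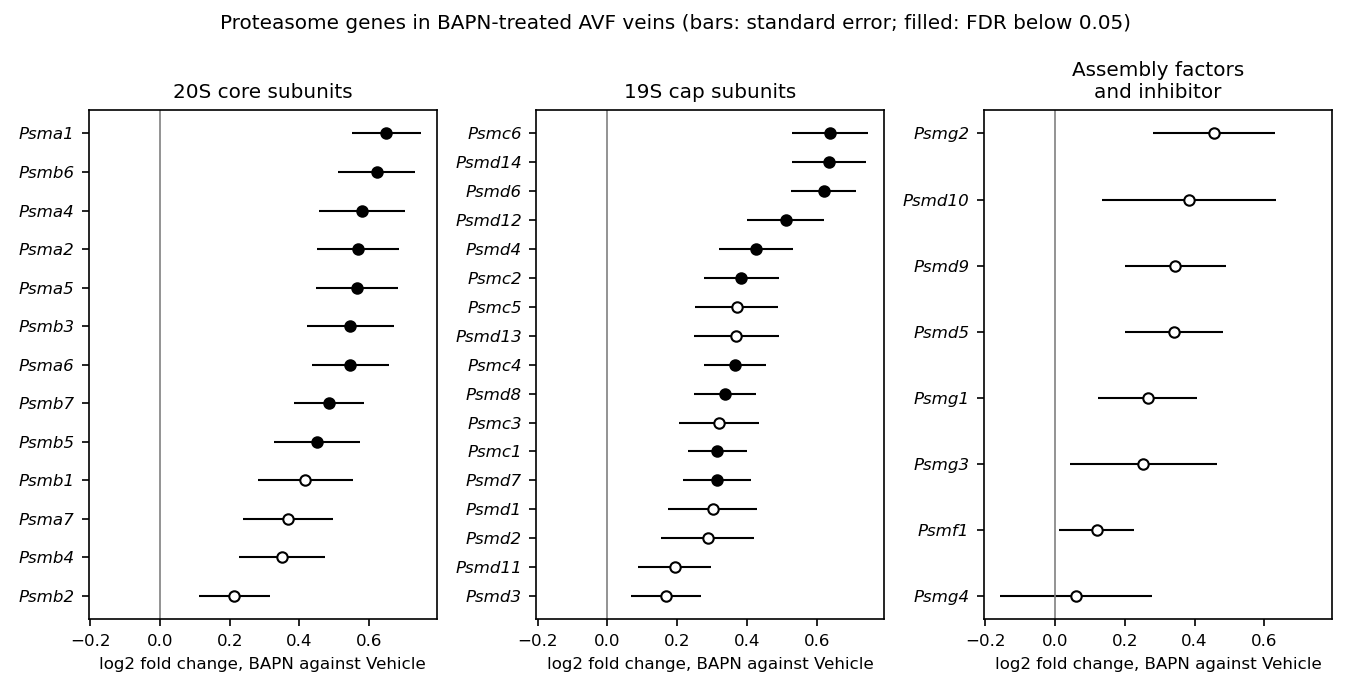
Log2 fold change of BAPN against Vehicle (x axis) for each of the 38 tested proteasome genes, with bars for the standard error from limma-voom. Filled points have an FDR below 0.05 in edgeR. All points lie above 0, and filled points are 9 of 13 core genes, 10 of 17 cap genes and 0 of 8 assembly factors and inhibitor.

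The promoters of the proteasome genes were examined as a feature that the naming rule did not use, since all 38 values lay above 0. RefSeq promoters (build GRCr8, 250 bases before to 50 after the start) were found for 34 of the 38 tested genes. The build of the count files is not given in the sources used here. The CCAAT box, bound by nuclear factor Y, was searched as CCAAT on both strands. The core of the antioxidant response element, the kind of site bound by the factors of Nfe2l1 and Nfe2l2, was searched as TGACNNNGC on both strands. CCAAT stood in 17 of 34 proteasome promoters (50%), in 8 of 12 of the core, 5 of 14 of the cap and 4 of 8 of the assembly factors and inhibitor. It stood in 37.5% of all 33469 promoters of this length and in 37% of those of tested genes. TGACNNNGC stood in 6 of 34 (17.6%), against 12.1% of all promoters and 14.8% of those of tested genes. Among called genes CCAAT stood in 9 of 16 and TGACNNNGC in 2 of 16, and among genes not called in 8 of 18 and 4 of 18. A match describes letters only, and no binding was measured.

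The promoters of the 2 core and 2 cap genes with the smallest FDR among those with an entry show what these windows hold, with matches to either motif in capitals. The promoter of Psma1 (chr1:177887808-177888107, minus strand) has a CCAAT with its first base at -123 from the start, and Psmb6 (chr10:55737638-55737937, plus strand) has a TGACNNNGC at -24. Psmc6 (chr15:21022064-21022363, plus strand) and Psmc4 (chr1:92485011-92485310, minus strand) have neither in this window, and both genes rose.
Psma1: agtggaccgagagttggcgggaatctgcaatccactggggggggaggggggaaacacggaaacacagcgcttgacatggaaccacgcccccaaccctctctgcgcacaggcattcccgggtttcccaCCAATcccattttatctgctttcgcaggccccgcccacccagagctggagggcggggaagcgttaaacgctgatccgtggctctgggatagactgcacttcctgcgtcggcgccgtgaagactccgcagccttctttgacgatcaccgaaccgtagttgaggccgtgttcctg
Psmb6: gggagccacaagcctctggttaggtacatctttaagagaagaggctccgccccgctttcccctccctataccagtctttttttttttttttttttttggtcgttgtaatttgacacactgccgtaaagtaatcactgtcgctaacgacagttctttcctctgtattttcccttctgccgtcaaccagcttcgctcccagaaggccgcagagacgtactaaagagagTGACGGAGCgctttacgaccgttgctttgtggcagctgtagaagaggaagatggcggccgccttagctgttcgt
Psmc6: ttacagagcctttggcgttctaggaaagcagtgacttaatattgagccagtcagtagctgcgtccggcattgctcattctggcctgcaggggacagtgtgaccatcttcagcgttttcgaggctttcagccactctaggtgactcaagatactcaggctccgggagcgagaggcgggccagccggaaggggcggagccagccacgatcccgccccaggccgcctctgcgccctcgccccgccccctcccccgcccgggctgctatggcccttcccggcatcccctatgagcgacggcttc
Psmc4: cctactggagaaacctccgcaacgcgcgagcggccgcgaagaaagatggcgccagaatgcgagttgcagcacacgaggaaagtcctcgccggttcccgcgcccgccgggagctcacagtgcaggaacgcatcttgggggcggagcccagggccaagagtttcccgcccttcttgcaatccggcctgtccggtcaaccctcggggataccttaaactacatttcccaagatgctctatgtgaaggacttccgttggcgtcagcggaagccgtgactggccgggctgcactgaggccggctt

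The CCAAT matches on the gene's own strand in core promoters are shown with 12 bases on either side, to let the flanks be compared. Capitals mark the CCAAT, and the number gives its first base relative to the start. All but that of Psmb2 belong to genes called higher with BAPN, as were 9 of the 13 tested core genes. Matches on the opposite strand, such as that of Psmb1 at -237, are not shown, and Psmb1 was not called. Whether the motif goes with the calls was not tested.
Psma1 at -123: ccgggtttcccaCCAATcccattttatct
Psma5 at -70: aagcttgtcagcCCAATcattgcagcgaa
Psma5 at -41: aatatctatcagCCAATagaacggagaca
Psma2 at -77: tctgactctcctCCAATcagagcaaagag
Psmb7 at -109: ggaactctatgcCCAATaaagccagttcc
Psma4 at -168: tatatccttcctCCAATcctcctcctcca
Psmb3 at -65: cgggctgggtatCCAATagaaggctgaac
Psmb3 at -24: gtggttcgccagCCAATggggaggactcg
Psmb2 at -72: catcgacccgcgCCAATgaccgggcggtc

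The core genes had the largest median difference of the 3 classes. Of the 13 core genes 9 rose and none fell, the median log2 fold change of the core was 0.55 (1.46-fold), and the range was 0.21 to 0.65. Of the 6 alpha ring genes 5 were called, of the 3 catalytic beta ring genes all 3, and of the 4 other beta ring genes 1. The summed level of the core averaged 1289 ± 113 CPM in the BAPN group and 920.4 ± 59.3 CPM in the Vehicle group (SD, n = 4 rats each). The called core count was 3 without Vehicle 1, where 1.28% of all tested genes were called higher. Among females alone (3 BAPN against 2 Vehicle rats) edgeR called 0 core genes and 0.3% of all tested genes higher, and 9 of 13 core genes were higher at an unadjusted p under 0.05, against 11.8% of all tested genes.

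In the alpha ring, Psma1 (ENSRNOG00000011745) was at 96.8, 107, 112 and 114 CPM in BAPN 1 to 4 and at 64.5, 66.1, 72.7 and 70.8 CPM in Vehicle 1 to 4. The lowest BAPN value was well above the highest Vehicle value (log2 fold change 0.65, SE 0.10, FDR 0.00863). The call of Psma1 held in each of the 8 leave-one-out fits. Psma5 (ENSRNOG00000019868), also an alpha ring subunit, was at 78.0, 78.9, 88.9 and 81.4 CPM in BAPN 1 to 4 and at 59.4, 55.0, 45.8 and 61.1 CPM in Vehicle 1 to 4. The groups did not overlap, with Vehicle 3 the lowest rat (log2 fold change 0.56, SE 0.12, FDR 0.0167). Psma6 (ENSRNOG00000007114) was at 109, 118, 138 and 110.0 CPM in BAPN 1 to 4 and at 85.4, 85.1, 80.3 and 74.9 CPM in Vehicle 1 to 4. Here BAPN 3 was the highest rat, and the other BAPN rats also exceeded all Vehicle rats (log2 fold change 0.55, SE 0.11, FDR 0.0167). Psma2 (ENSRNOG00000049920) was at 98.6, 112, 124 and 106 CPM in BAPN 1 to 4 and at 77.2, 74.1, 63.8 and 82.0 CPM in Vehicle 1 to 4. Again BAPN 3 was highest and Vehicle 3 lowest (log2 fold change 0.57, SE 0.12, FDR 0.0169). Psma4, whose protein takes part in closing the gate, was also called (log2 fold change 0.58, SE 0.12, FDR 0.0197). Without Vehicle 1 the calls of Psma6 (FDR 0.0505), Psma2 (FDR 0.0516) and Psma4 (FDR 0.0613) were lost. Psma7 was the alpha ring gene that did not pass (log2 fold change 0.37, SE 0.13, FDR 0.0699), although its groups did not overlap. Psma3l, outside the naming rule, was at 116, 141, 150.1 and 137 CPM in BAPN 1 to 4 and at 88.5, 91.2, 89.1 and 99.9 CPM in Vehicle 1 to 4. It did not overlap between the groups (log2 fold change 0.56, SE 0.11, FDR 0.0161) and lost its call without Vehicle 1 (FDR 0.0532).

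The 3 catalytic subunits cut after different residues. Psmb6 (ENSRNOG00000019551), the caspase-like subunit, was at 67.7, 62.5, 75.0 and 75.7 CPM in BAPN 1 to 4 and at 47.1, 49.7, 40.7 and 45.2 CPM in Vehicle 1 to 4. Every BAPN rat exceeded every Vehicle rat (log2 fold change 0.62, SE 0.11, FDR 0.0118), and this call held in each leave-one-out fit. Psmb7 (ENSRNOG00000011732), the trypsin-like subunit, was at 61.6, 62.7, 64.7 and 69.6 CPM in BAPN 1 to 4 and at 47.5, 50.9, 42.0 and 44.5 CPM in Vehicle 1 to 4. Its groups were apart as well (log2 fold change 0.48, SE 0.10, FDR 0.017), and without Vehicle 1 the FDR was 0.0525. Psmb5 (ENSRNOG00000013386), the chymotrypsin-like subunit that proteasome inhibitor drugs bind, was at 28.1, 27.4, 33.9 and 29.1 CPM in BAPN 1 to 4 and at 22.8, 20.7, 23.3 and 19.9 CPM in Vehicle 1 to 4. The groups were separate by a smaller margin (log2 fold change 0.45, SE 0.12, FDR 0.0323). Psmb5 kept its call only without Vehicle 3 among the 8 leave-one-out fits, with an FDR of up to 0.0818 without BAPN 3, and had an FDR of 0.0675 with sex as a covariate. All 3 values were between 0.45 and 0.62, or 1.37-fold to 1.54-fold.

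Of the beta ring genes without a proteolytic site, Psmb3 was called (log2 fold change 0.55, SE 0.12, FDR 0.0222), with means of 71.0 ± 9.46 CPM in the BAPN group and 48.6 ± 4.55 CPM in the Vehicle group (SD, n = 4 rats each). It lost its call without BAPN 4 (FDR 0.0509), Vehicle 1 (FDR 0.0661) or Vehicle 4 (FDR 0.0504). Psmb1 (log2 fold change 0.42, SE 0.14, FDR 0.0623) and Psmb4 (log2 fold change 0.35, SE 0.12, FDR 0.074) did not reach the threshold. Each was called without Vehicle 2, as was Psma7 (FDR 0.0438, 0.0358 and 0.0448), and Vehicle 2 was the highest Vehicle rat for all 3. Psmb2 (ENSRNOG00000011463) had the smallest core value. It was at 58.9, 71.9, 67.3 and 64.5 CPM in BAPN 1 to 4 and at 52.0, 56.0, 60.1 and 58.3 CPM in Vehicle 1 to 4. BAPN 1 lay within the Vehicle range, and the value (log2 fold change 0.21, SE 0.10, FDR 0.154) had a limma-voom 95% interval of -0.02 to 0.44.

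**Figure D2:**
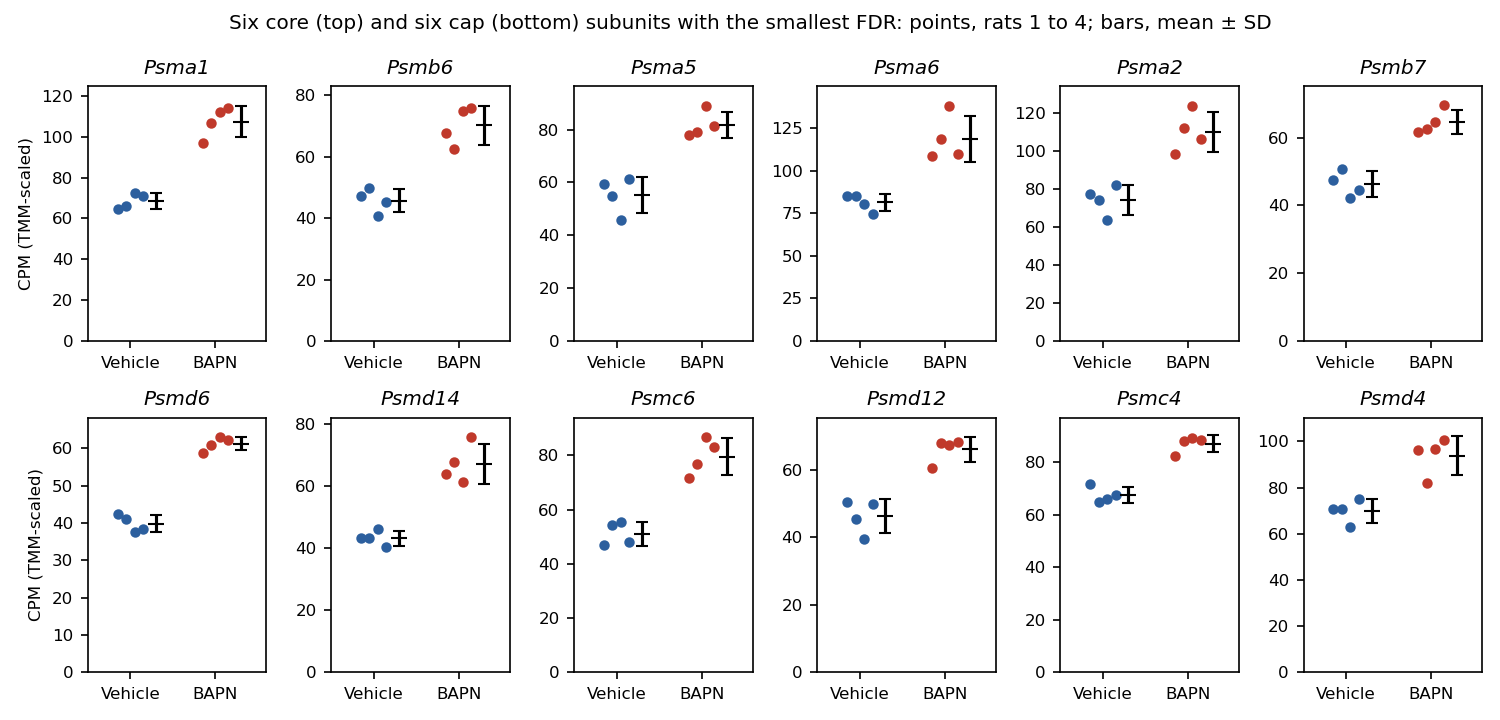
Expression in CPM (y axis, from 0) of the 6 core and 6 cap subunits with the smallest FDR. Points are rats 1 to 4 of the Vehicle and BAPN groups, and bars are the mean ± SD of 4 rats. In every panel the lowest BAPN rat is above the highest Vehicle rat.

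The cap genes included the member with the smallest FDR, Psmd6, and had a smaller median difference than the core. Of 17 cap genes 10 rose and none fell, the median log2 fold change was 0.37 (1.29-fold), and the range was 0.17 to 0.64. The called genes were 4 of the 6 ATPases of the base, 5 of the 8 lid genes and 1 of the 3 other base genes. The summed level of the cap averaged 1841 ± 90.2 CPM in the BAPN group and 1443 ± 78.1 CPM in the Vehicle group (SD, n = 4 rats each). The called cap count was 6 without BAPN 1 or Vehicle 4, 5 without BAPN 2, 4 without BAPN 3, Vehicle 1 or Vehicle 3, and 3 without BAPN 4. The share of all tested genes called higher in these fits was 1.28% to 5%. The cap count was 5 with sex as a covariate (3.33% of all tested genes) and 6 with total counts only (4.31%). Among females alone edgeR called 0 cap genes, and 9 of 17 were higher at an unadjusted p under 0.05.

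In the lid, Psmd6 (ENSRNOG00000006751), a structural subunit, was at 58.8, 61.0, 62.9 and 62.3 CPM in BAPN 1 to 4 and at 42.4, 41.0, 37.7 and 38.4 CPM in Vehicle 1 to 4. Rats within each group differed little compared with the gap between the groups (log2 fold change 0.62, SE 0.09, FDR 0.00806). Psmd14 (ENSRNOG00000061129), the deubiquitinase that removes the ubiquitin chain as the substrate enters, was at 63.7, 67.8, 61.1 and 75.6 CPM in BAPN 1 to 4 and at 43.1, 43.1, 46.0 and 40.2 CPM in Vehicle 1 to 4. BAPN 4, the male, was highest and no rats overlapped (log2 fold change 0.64, SE 0.11, FDR 0.00965). Psmd12 (ENSRNOG00000003117) was at 60.5, 67.9, 67.4 and 68.1 CPM in BAPN 1 to 4 and at 50.3, 45.5, 39.4 and 49.97 CPM in Vehicle 1 to 4. BAPN 1 stood below the other BAPN rats but above all Vehicle rats (log2 fold change 0.51, SE 0.11, FDR 0.0193). Leaving out BAPN 4 ended this call (FDR 0.0505). The calls of Psmd6 and Psmd14 held in each of the 8 leave-one-out fits. Psmd8 (log2 fold change 0.34, SE 0.09, FDR 0.0297) kept its call in 2 of these fits. Psmd7, the partner of Psmd14 (log2 fold change 0.31, SE 0.10, FDR 0.0482), kept it in 0 of them.

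The ATPases form the ring that unfolds substrates. Psmc6 (ENSRNOG00000007203) was at 71.5, 76.9, 86.7 and 83.2 CPM in BAPN 1 to 4 and at 46.9, 54.3, 55.5 and 48.0 CPM in Vehicle 1 to 4. Its groups were far apart (log2 fold change 0.64, SE 0.11, FDR 0.0105), and the call held in each leave-one-out fit. Psmc4 (ENSRNOG00000018994) was at 82.3, 88.2, 89.3 and 88.3 CPM in BAPN 1 to 4 and at 71.8, 64.7, 66.2 and 67.6 CPM in Vehicle 1 to 4. The difference was smaller (log2 fold change 0.37, SE 0.09, FDR 0.0245) and kept its call only without BAPN 1 or Vehicle 2 among these fits, with an FDR of up to 0.0604 without BAPN 4. Psmc1 (log2 fold change 0.32, SE 0.09, FDR 0.0355) kept its call in 0 of the 8 fits and Psmc2 (log2 fold change 0.38, SE 0.11, FDR 0.0379) in 1, and both had their largest FDR without Vehicle 1 (0.096 and 0.103). Psmc5 (log2 fold change 0.37, SE 0.12, FDR 0.0554) and Psmc3 (log2 fold change 0.32, SE 0.12, FDR 0.0842) did not reach the threshold, and Psmc5 was called without Vehicle 2 (FDR 0.0278).

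Among the other base genes, Psmd4 (ENSRNOG00000021042), a ubiquitin receptor, was at 96.2, 81.8, 96.8 and 101 CPM in BAPN 1 to 4 and at 70.8, 70.6, 63.0 and 75.1 CPM in Vehicle 1 to 4. All BAPN rats were above all Vehicle rats (log2 fold change 0.43, SE 0.11, FDR 0.0266). This call did not hold in 5 of the 8 leave-one-out fits, namely without BAPN 1, BAPN 3, BAPN 4, Vehicle 1 or Vehicle 3 (FDR up to 0.0705), and with sex as a covariate (FDR 0.0534). Psmd1 (log2 fold change 0.30, SE 0.13, FDR 0.116) and Psmd2 (log2 fold change 0.29, SE 0.13, FDR 0.164), the large scaffold subunits, were not called. Over the 18 alternatives Psmd1 ranged from 0.15 to 0.35 and Psmd2 from 0.07 to 0.35, both lowest among females alone. In the lid, Psmd13 (log2 fold change 0.37, SE 0.12, FDR 0.0585) and Psmd11 (log2 fold change 0.19, SE 0.10, FDR 0.196) were not called either, and Psmd13 was called without Vehicle 2 (FDR 0.0372). Psmd3 (ENSRNOG00000028103), a lid subunit, had the smallest cap value. It was at 116, 103, 109 and 108 CPM in BAPN 1 to 4 and at 106, 94.6, 87.0 and 101 CPM in Vehicle 1 to 4. The groups overlapped (log2 fold change 0.17, SE 0.10, FDR 0.247), and the 95% interval was -0.06 to 0.40.

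No assembly factor reached the threshold in edgeR. An unadjusted p under 0.05 was found for 3 of the 8, with values above 0, and for 35.8% of all tested genes in either direction (17.4% higher). DESeq2 called 1 of them, Psmg2 (FDR 0.0476). The median log2 fold change of the 8 genes was 0.30 and the range was 0.06 to 0.46. Psmg2, which pairs with Psmg1 to build the alpha ring, was at 12.2, 13.3, 15.9 and 12.9 CPM in BAPN 1 to 4 and at 7.68, 10.1, 11.4 and 10.4 CPM in Vehicle 1 to 4. Its groups did not overlap (log2 fold change 0.46, SE 0.18, FDR 0.0897). Psmg1 averaged 28.2 ± 3.41 CPM in the BAPN group and 23.5 ± 3.12 CPM in the Vehicle group (SD, n = 4 rats each), with overlap (log2 fold change 0.27, SE 0.14, FDR 0.197). Of the chaperones of the ATPase ring, Psmd9 (0.35, FDR 0.118), Psmd5 (0.34, FDR 0.121) and Psmd10 (0.38, FDR 0.291) had log2 fold changes close to the median of the cap. Psmf1, described as an inhibitor of the core, had a log2 fold change of 0.12 (FDR 0.447, 95% interval -0.12 to 0.37). Psmg3 (0.25, FDR 0.394) and Psmg4 (0.06, FDR 0.855, 95% interval -0.47 to 0.51) had, with Psmd10, the widest scatter within the groups (SD of log2 CPM 0.30 to 0.31). Whether the assembly factors differed from the core and cap genes was not tested, and their within-group SD of log2 CPM was larger (median 0.20) than that of the core (0.15) and of the cap (0.12). Over all tested genes the median within-group SD was 0.26.

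The same rats were often at the extremes of their group. BAPN 3 was the highest BAPN rat in 21 genes and BAPN 1 the lowest in 22, while Vehicle 3 was the lowest Vehicle rat in 20 and Vehicle 2 the highest in 13. Relative to the mean of the Vehicle rats, the median log2 CPM of the core for the BAPN rats 1 to 4 came to 0.38, 0.46, 0.69 and 0.52, and for the Vehicle rats 1 to 4 to -0.09, 0.12, -0.07 and 0.05. For the cap the BAPN rats had 0.30, 0.32, 0.41 and 0.44, and the Vehicle rats 0.03, 0.04, -0.09 and 0.00. Both classes thus had all BAPN rats above all Vehicle rats, and the median of the core exceeded that of the cap in each BAPN rat. Over all tested genes the median stayed between 0.00 and 0.04 in the 8 rats. No test compared the core with the cap.

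**Figure D3:**
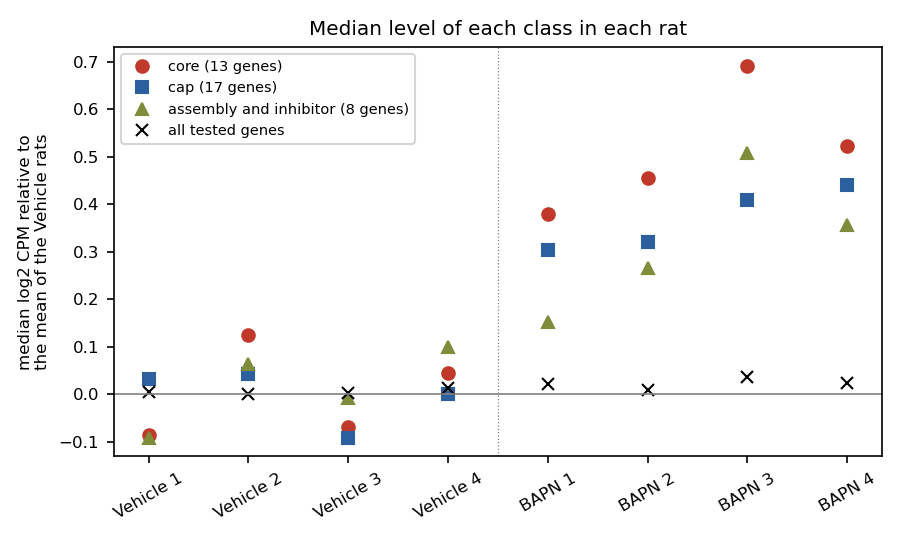
Median log2 CPM of the core, cap, and assembly and inhibitor genes, and of all tested genes, relative to the mean of the 4 Vehicle rats (y axis), for each rat (x axis). The core and cap medians of the BAPN rats, 0.30 to 0.69, lie above those of all Vehicle rats.

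**Figure D4:**
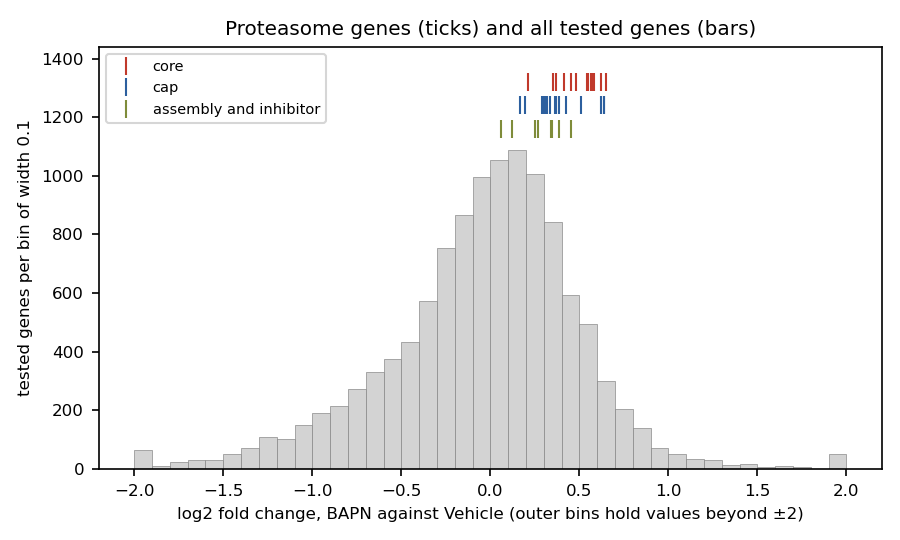
Histogram of the log2 fold change of BAPN against Vehicle for the 11682 tested genes, with values beyond 2 in the outer bins, and a tick for each proteasome gene. The ticks lie between 0.06 and 0.65 and do not reach the right tail of the histogram.

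Sex differed in its share between the groups. With sex as a covariate the median log2 fold changes were 0.51 for the core and 0.34 for the cap, and among females alone they were 0.50 and 0.33. The interaction of treatment and sex was called for 0 of the 38 genes and for 0% of all tested genes in edgeR, and had an unadjusted p under 0.05 for 1 proteasome gene and for 12.3% of all tested genes. Only 1 BAPN rat was male. When the counts of all libraries were thinned to the smallest total, the medians were 0.53 and 0.35, and 18 proteasome genes were called higher, against 7.01% of all tested genes.

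Markers of smooth muscle and endothelium, the cells of a vein wall, were detected in all 8 libraries. Some cell type markers also differed between the groups, and their part in the proteasome result was not tested. For comparison, 7.5% of all tested genes were called higher and 9.25% lower, and 51.6% had values above 0. Of the smooth muscle markers 6 of 6 had values below 0 and 4 fell, with summed levels of 1435 to 3991 CPM in the BAPN rats and 2974 to 5622 CPM in the Vehicle rats. Of the endothelial markers 5 of 5 had values below 0 and 2 fell (435 to 557 and 687 to 1434.5 CPM), and Pecam1 was not analysed here. The macrophage markers had 5 of 6 values above 0 and 0 calls (2493 to 3433 and 1548 to 3068 CPM), the T cell markers 6 of 6 above 0 and 1 call (38.2 to 113 and 23.0 to 48.7 CPM), and the B and plasma cell markers 2 calls of 3 tested (5.82 to 199.6 and 9.70 to 33.5 CPM). The fibroblast markers had 1 of 6 values above 0 and 0 calls, with 13101 to 20790.2 CPM in the BAPN rats and 16744 to 45851 CPM in the Vehicle rats. The adipocyte list had 1 of 5 called lower (2518 to 7616 and 942 to 5358 CPM) and the skeletal muscle list 0 of 2 called (13.7 to 27.6 and 16.01 to 51.8 CPM). Of the keratinocyte list 1 gene passed the filter and was called higher (0.0835 to 19.2 and 0 to 0.0988 CPM). It passed through BAPN libraries alone, since all Vehicle rats were near 0, and its lowest BAPN value lay within the Vehicle range.

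The immunoproteasome subunits, which replace the catalytic subunits in immune cells and after interferon, and their activator were compared as a list. Of 5 genes 4 were called higher (7.5% of all tested genes), all 5 had no overlap between the groups (12.7% of all tested genes with BAPN higher), and the median log2 fold change was 0.56. Psmb9, which replaces Psmb6, was at 95.2, 80.2, 87.0 and 68.4 CPM in BAPN 1 to 4 and at 38.3, 62.7, 53.7 and 32.2 CPM in Vehicle 1 to 4. It varied more within the groups (SD of log2 CPM 0.34) than any tested proteasome gene, without overlap (log2 fold change 0.82, SE 0.21, FDR 0.0299). Psmb10, which replaces Psmb7, was also called (log2 fold change 0.52, SE 0.13, FDR 0.0325), as were Psme1 (log2 fold change 0.56, SE 0.14, FDR 0.0318) and Psme2 (log2 fold change 0.53, SE 0.14, FDR 0.0316), the chains of the activator. Psmb8, which replaces Psmb5, was not (log2 fold change 0.62, SE 0.23, FDR 0.0796). The number called in this list was 0 without BAPN 1, BAPN 3, Vehicle 1 or Vehicle 4, 1 without BAPN 2 or Vehicle 3, and 0 with sex as a covariate or total counts only, in fits that called 1.28% to 5% of all tested genes higher, while all 5 genes were higher at an unadjusted p under 0.05 over the 8 rats, against 17.4% of all tested genes.

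Among other subunits, activators and partners, 3 of 13 tested genes were called higher and 1 lower, and the median was 0.10. Over all tested genes 7.5% were called higher and 9.25% lower. Sem1, a small lid subunit whose name the rule does not cover, rose (log2 fold change 0.58, SE 0.14, FDR 0.0267), as did the cap-bound deubiquitinases Uchl5 (log2 fold change 0.80, SE 0.23, FDR 0.0266) and Usp14 (log2 fold change 0.36, SE 0.11, FDR 0.0453). Ubqln2, which shuttles ubiquitinated proteins to the proteasome, fell (log2 fold change -0.59, SE 0.16, FDR 0.0392). No gene of this list was called without BAPN 3, BAPN 4, Vehicle 1 or Vehicle 4, and over the 8 rats 4 of 13 had an unadjusted p under 0.05, against 35.8% of all tested genes. Adrm1, a ubiquitin receptor of the cap, was at 73.2, 76.0, 81.0 and 74.1 CPM in BAPN 1 to 4 and at 76.4, 82.1, 61.7 and 71.6 CPM in Vehicle 1 to 4. Its groups overlapped (log2 fold change 0.06, SE 0.11, FDR 0.705, 95% interval -0.18 to 0.32). The activators Psme3 (0.07, FDR 0.698) and Psme4 (0.05, FDR 0.738) had values near 0. Pomp, the maturation factor of the core, was below the filter, and Paaf1 was not analysed here.

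Genes of ubiquitin and of its activation were also followed. Rps27a, a fusion of ubiquitin with a ribosomal protein, was listed as a pair of genes of the same name, both called (log2 fold changes 1.14 and 0.95), between which shared reads may be split. Ubb, which encodes a chain of ubiquitin units, was at 1130.1, 1007, 1144 and 1242 CPM in BAPN 1 to 4 and at 882, 859, 812 and 839 CPM in Vehicle 1 to 4. Its groups did not overlap (log2 fold change 0.41, SE 0.13, FDR 0.0612), and it was called by DESeq2 (FDR 0.000518) but not by edgeR. Neither tool called the activating enzymes Uba1 (-0.04) and Uba6 (-0.05). In the list of the Vcp segregase, which extracts ubiquitinated proteins, 1 of 6 was called, against 16.8% of all tested genes in either direction. This was Ufd1 (log2 fold change 0.38, SE 0.11, FDR 0.0451), which was called in 0 of the 8 leave-one-out fits, and Vcp itself had a log2 fold change of 0.10 (FDR 0.608).

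None of the 8 regulators of proteasome gene transcription was called by edgeR or DESeq2, and 0 had an unadjusted p under 0.05 in edgeR, against 35.8% of all tested genes. Nfe2l2 was at 148, 141, 191 and 205 CPM in BAPN 1 to 4 and at 138, 159, 117 and 124 CPM in Vehicle 1 to 4. It overlapped between the groups (log2 fold change 0.35, SE 0.16, FDR 0.148, 95% interval -0.01 to 0.69). Nfe2l1 was at 146, 124, 109.7 and 149 CPM in BAPN 1 to 4 and at 197, 153, 118 and 192 CPM in Vehicle 1 to 4. Its groups also overlapped, and its value was below 0 (log2 fold change -0.32, SE 0.19, FDR 0.231, 95% interval -0.72 to 0.11). The nuclear factor Y genes Nfya, Nfyb and Nfyc had log2 fold changes of -0.01, 0.17 and 0.04.

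**Figure D5:**
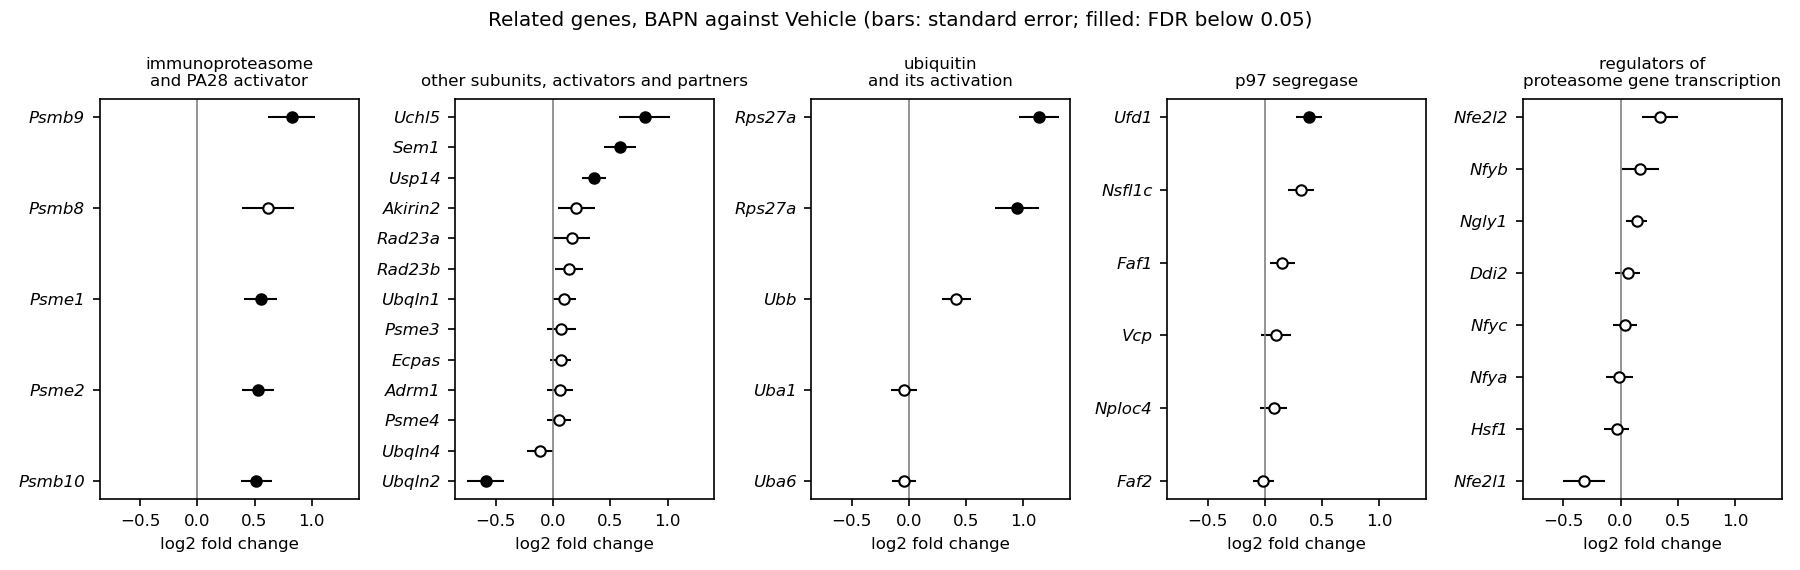
Log2 fold change of BAPN against Vehicle (x axis) for genes related to the proteasome in 5 lists, with bars for the standard error from limma-voom and filled points for an FDR below 0.05 in edgeR. Of the immunoproteasome and activator genes 4 of 5 are filled, and of the transcriptional regulators 0 of 8.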

How the data were processed

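Outflow veins of 8 rats were compared, 4 BAPN against 4 Vehicle, grouped by the sample titles, 1 rat per library. Total RNA was depleted of ribosomal RNA and made into stranded libraries by the authors. The submitters' processing notes name bcl2fastq 2.17, Trim Galore and STAR. The counting tool, strand setting and genome build are not given in the sources used here, and neither is the handling of reads that match several genes. The authors deposited whole-number counts of reads per Ensembl gene without normalization. A base mean of 100 or more by DESeq2 1.42.0 size factors was required. Tests used the quasi-likelihood model of edgeR 4.0.16 in R 4.3.3, with TMM scaling and treatment alone in the design. Both tools were also run on simulated counts. There edgeR recovered 4 of 100 genes changed by 0.5 in log2 and 79 of 100 changed by 1.5, with 9 false calls. DESeq2 recovered 18 and 86 of them, with 38 false calls. Standard errors and intervals came from limma 3.58.1 (voom). Log2 CPM used a prior count of 2. The members and lists were chosen with earlier results of these data known. Values in every rat were given for the 6 core and 6 cap genes with the smallest FDR, the catalytic genes, the core gene and the cap gene nearest to 0 and, chosen after their values were seen, Psma3l, Psmg2, Psmb9, Ubb, Adrm1, Nfe2l1 and Nfe2l2. Related genes were named where called or with the smallest FDR of their list, and others in them after their values were seen. Levels were not compared between genes, since no transcript lengths were used here. The sample labels gave no pairing of the rats, and the main test used none. The ubiquitin list was shortened after its values were known, since some of its genes are not reported here, so no count over it is given.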

Additional observations from a re-analysis of the deposited data

Results flagged for a closer look

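Within the groups of 4, 6 of 76 sets of values of the 38 tested proteasome genes had 1 rat far from the other 3, and chance flags about 1 in 20. BAPN 1 was low for Psmc4 (82.3 CPM against 88.2 to 89.3), Psmd12 (60.5 CPM against 67.4 to 68.1) and Psmd10 (4.81 CPM against 6.60 to 6.87). BAPN 4 was high for Psmc2 (103 CPM against 90.8 to 92.4). Vehicle 4 was high for Psmc2 (84.5 CPM against 67.8 to 69.2) and for Psmc1 (103 CPM against 97.1 to 97.9).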

How the results depend on the processing

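Over 18 alternatives the median log2 fold changes of the core and of the cap stayed above 0 and moved by less than the spread between rats. The numbers of genes called by edgeR moved more. Of 13 core and 17 cap genes (9 and 10 called, and 7.5% of all tested genes called higher), 8 and 6 were called with total counts only (4.31%), 9 and 6 without a filter (3.51%), 8 and 5 with sex as a covariate (3.33%), and 0 and 0 among females alone (0.3%), where 9 and 9 were higher at an unadjusted p under 0.05 (11.8%) and fewer rats entered the fit. Leaving out 1 rat gave 3 to 11 core calls and 3 to 9 cap calls (1.28% to 7.94%), with 3 core calls without Vehicle 1 (1.28%), and 0 assembly factors were called in any of these fits. DESeq2 called 12 core genes, 13 cap genes and 1 assembly factor (12.3%). With the replicate number as a block, 1 core and 3 cap genes were called (1.71%). The labels gave no pairing of the rats by number. The deviations of same-numbered rats correlated at 0.0944, -0.265, 0.269 and -0.14, and so few values cannot exclude a pairing. Of 684 values of single proteasome genes in these alternatives 3 reversed, all of them Psmg4 (0.06 over all rats), with -0.0102 under total counts, -0.14 without BAPN 3 and -0.0023 without Vehicle 4, and its leave-one-out range was -0.14 to 0.17. The alternatives for Psma3l and the related genes were added after the data were seen. The causes of these changes were not tested. Precision was limited by 4 rats per group, and library size cannot be told apart from treatment.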
